A study of Mus musculus with 20 samples.

Results

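The aryl hydrocarbon receptor (AhR) genes described here are 7 genes of the 35204 in the deposited gene table, namely Ahr, its partner Arnt, the feedback genes Ahrr and Tiparp, and the enzyme genes Cyp1a1, Cyp1b1 and Nqo1. The rule takes them by name, as the receptor, its partner and genes that AhR is known to induce, and uses none of their values, although earlier results of these data were known when the set was proposed. All 7 were among the 16306 genes tested. They were followed in whole pieces of terminal ileum of 20 female C57BL/6 mice, 7 weeks old at the start and sampled after 3 weeks, with 5 mice in each of 4 groups. Specific pathogen-free (SPF) mice were fed an amino acid control diet (CD) or the same diet without tryptophan (TDD). The other two groups (CD+ABX and TDD+ABX) had the same diets and an antibiotic cocktail of Neomycin, Metronidizole, Gentamycin, Vancomycin and Ampicillin. Per the study's methods, mice were moved from chow to the control diet before they were divided. Total counts per mouse ranged from 36676963 to 58662617.

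AhR is a ligand-activated transcription factor of the bHLH-PAS family that waits in the cytoplasm with HSP90 and its cochaperones. Ligands, among them indoles that gut bacteria make from tryptophan and kynurenines that host cells make from it, release AhR into the nucleus, where it pairs with ARNT and binds DNA at a GCGTG core. In the gut the pathway is known for its part in epithelial defence and in the upkeep of innate lymphoid cells and intraepithelial lymphocytes. The comparisons asked whether RNA of these genes followed dietary tryptophan, and whether it did so with and without the bacteria that turn tryptophan into AhR ligands.

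The bases before the start of the target genes are shown because the GCGTG core is what links the receptor to its targets, and they give the DNA context of the genes whose RNA differed. Promoter windows were found for 6 of the 7 genes in RefSeq (GRCm38.p6). The 250 bases of each before the start were searched and, for the 5 targets, 213 to 250 of them are shown. The core was searched on both strands as GCGTG or CACGC. It was present in 28.2% of the 32851 promoter windows of the genome, and a match is a description of letters, not of binding. Each run below reads 5′ to 3′ on the gene's own strand and stops before the RefSeq start or before an annotated transcript start inside the window, and capitals mark the core.
Ahrr, chr13:74292332-74292581, minus strand: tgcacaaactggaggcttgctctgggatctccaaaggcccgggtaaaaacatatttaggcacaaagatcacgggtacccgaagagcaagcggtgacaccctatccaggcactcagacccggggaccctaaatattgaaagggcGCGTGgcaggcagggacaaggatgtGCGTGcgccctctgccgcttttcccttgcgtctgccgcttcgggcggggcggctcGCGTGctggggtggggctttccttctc
Tiparp, chr3:65528197-65528409, plus strand: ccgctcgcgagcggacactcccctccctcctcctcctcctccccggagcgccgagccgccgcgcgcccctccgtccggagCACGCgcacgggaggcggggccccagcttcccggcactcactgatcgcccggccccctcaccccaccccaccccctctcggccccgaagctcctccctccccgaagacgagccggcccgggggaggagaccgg
Cyp1a1, chr9:57697363-57697612, plus strand: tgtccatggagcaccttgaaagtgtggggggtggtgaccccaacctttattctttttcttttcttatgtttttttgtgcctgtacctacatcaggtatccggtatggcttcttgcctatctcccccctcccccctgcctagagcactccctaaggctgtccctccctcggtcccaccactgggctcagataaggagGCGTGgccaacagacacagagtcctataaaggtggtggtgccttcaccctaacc
Cyp1b1, chr17:79715062-79715311, minus strand: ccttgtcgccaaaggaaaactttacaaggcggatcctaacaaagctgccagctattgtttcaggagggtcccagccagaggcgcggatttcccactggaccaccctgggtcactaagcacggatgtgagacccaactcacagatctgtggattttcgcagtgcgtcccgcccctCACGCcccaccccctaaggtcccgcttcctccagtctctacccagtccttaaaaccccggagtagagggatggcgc
Nqo1, chr8:107403207-107403455, minus strand: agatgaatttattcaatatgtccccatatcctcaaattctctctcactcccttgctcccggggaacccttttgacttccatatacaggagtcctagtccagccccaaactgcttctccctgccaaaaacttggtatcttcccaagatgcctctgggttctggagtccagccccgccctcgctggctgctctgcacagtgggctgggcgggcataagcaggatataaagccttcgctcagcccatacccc
Ahrr held 3 matches, starting 107, 82 and 27 bases before its RefSeq start. Cyp1a1 held 1 match at 54 bases, Cyp1b1 1 at 76 bases and Tiparp 1 at 170 bases, the latter pair as CACGC. All positions count from the RefSeq start, and the run shown for Tiparp stops short of that start. The Cyp1a1 window lies upstream of the main transcript Cyp1a1-201 and inside the first intron of the longer Cyp1a1-202. Arnt held 1 match at 29 bases. In Nqo1 these letters were not in the window. The antioxidant response element core TGACNNNGC, searched on both strands because Nqo1 is also a target of the oxidative stress factor NRF2, was in 10.2% of windows and, among the 6, in that of Arnt alone.

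Before the results, the labelled tissue was checked against its markers, since they differed between the groups. Fabp6, the ileal bile acid binding protein, was at 1.17 ± 0.969 CPM in CD and 1.40 ± 1.58 CPM in TDD mice, but at 41.5 ± 59.4 CPM in CD+ABX and 20.1 ± 13.6 CPM in TDD+ABX mice (SD, n = 5; CPM is the count relative to the library total, on the TMM scale). Slc10a2, the ileal bile acid transporter, was at 2.36 ± 1.02 and 5.89 ± 1.98 CPM in SPF mice and at 39.5 ± 27.2 and 37.0 ± 16.7 CPM with ABX. Both rose with ABX on both diets, with log2 fold changes of 5.14 and 3.92 for Fabp6 (q = 0.00585 and 0.0198, edgeR) and of 4.07 and 2.65 for Slc10a2 (q = 9.83e-05 and 0.0014, edgeR). Here q is the p-value of edgeR's quasi-likelihood test after Benjamini-Hochberg adjustment over all genes tested. Apoa4, an apolipoprotein that is most abundant in the proximal small intestine, was at 6690 ± 3822 CPM in CD, 8441 ± 1882 CPM in TDD, 2192 ± 370.5 CPM in CD+ABX and 3863 ± 606 CPM in TDD+ABX mice (SD, n = 5), and it fell with ABX on both diets (q = 0.00593 and 0.0336, edgeR). The SPF samples thus carried little RNA of the defining ileal markers, while the general epithelial markers Vil1 and Epcam stayed within 3618 to 3884 and 1699 to 1923 CPM as group means. Anpep, a brush border peptidase, rose with ABX from 4026 to 8589 CPM on CD and from 4187 to 7298 CPM on TDD (q = 0.00114 and 0.00854, edgeR). CD mouse 2 stood apart, with a sum of 9213 CPM over the 7 enterocyte markers against 17560 to 21190 CPM in the other CD mice, and with 2490 CPM of Vil1 and 1294 CPM of Apoa4. Whether the position along the intestine or the bile acid response differed between groups was not tested, and the comparisons of ABX with no ABX below carry this difference.

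Leukocyte RNA differed with ABX as well. The summed level of 8 leukocyte markers ran from 166 to 261 CPM in CD, from 89.9 to 285 CPM in TDD, from 111 to 121 CPM in CD+ABX and from 81.7 to 198 CPM in TDD+ABX mice. Over all mice Lyz2, the macrophage lysozyme, was the most abundant, and none was at 0. Ptprc had the higher mean in TDD (67.05 against 62.77 CPM) and TDD+ABX mice (39.55 against 34.99 CPM). Of the 8, 5 fell with ABX on CD (Ptprc, Cd3e, Cd8a, Adgre1 and Lyz2), where 7.37% of all genes fell, and 3 on TDD (Ptprc, Cd3e and Lyz2), where 8.22% of all genes fell. TDD in SPF mice lowered 1 of the 8, the macrophage gene Adgre1 (7.71% of all genes fell). In such whole tissue, fewer cells of a type and less RNA per cell cannot be told apart. Albumin RNA (Alb), a liver marker, was at 14.9 and 11.0 CPM in TDD mice 4 and 5 and at 10.9 and 12.5 CPM in CD+ABX mice 1 and 2, and below 0.2 CPM in the other 16 mice. The results are therefore also given without these 4 mice.

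**Figure D1:**
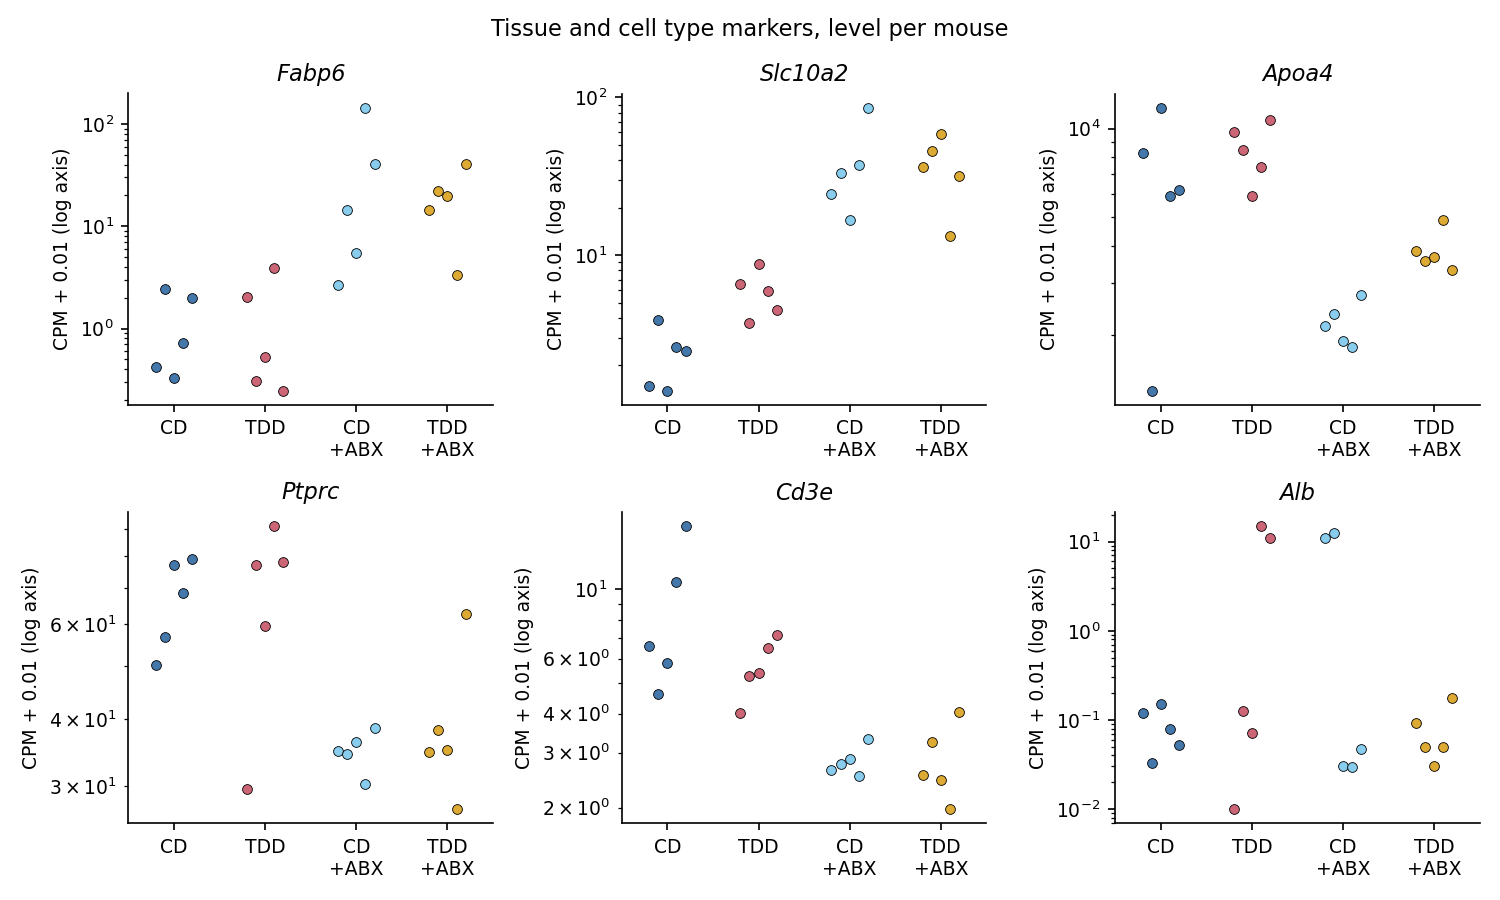
Levels of 6 markers in each mouse (CPM + 0.01, log axis; 1 point per mouse, 5 mice per group, no means drawn). The ileal genes Fabp6 and Slc10a2 lay low in the CD and TDD mice, Ptprc and Cd3e lay lower in most ABX mice, and Alb stood above 10 CPM in 4 mice.

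Across the gene set, 2 target genes of AhR with feedback roles were lower in TDD than in CD mice of the SPF setting, namely Ahrr (1.55-fold) and Tiparp (1.24-fold), and Nqo1 was 1.37-fold higher. With ABX the diets did not separate any of the 7 at q under 0.05. Antibiotics on CD lowered Ahrr and Tiparp, and antibiotics on TDD lowered Cyp1b1. Cyp1a1 was at too few counts outside 2 CD mice for its test to stand beside these. The receptor and its partner did not pass the test in any comparison.

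Counted by q under 0.05, TDD against CD in SPF mice gave 3 of the 7 genes, 2 lower and 1 higher, where 14.4% of all genes tested passed (7.71% lower and 6.65% higher). None reached a fold change of 2, which 1.83% of all genes did together with q under 0.05. In ABX-treated mice TDD against CD gave 0 of 7 at q under 0.05 (1.64% of all genes, and 0.307% with a 2-fold change), and 1 of 7, Nqo1, at an unadjusted p under 0.05 (14.7% of all genes). With DESeq2 Nqo1 also passed after adjustment there, and with limma-voom none did. ABX on CD gave 2 of 7, Ahrr and Tiparp, both lower (12.6% of all genes, 7.37% lower) and neither by 2-fold (2.25% of all genes). Cyp1a1 also passed both thresholds there, but it is left out of these counts because it entered the test only through 2 CD mice. ABX on TDD gave 1 of 7, Cyp1b1, which was more than 2-fold lower (15.4% of all genes by q alone and 1.63% with the fold change). The interaction of diet and antibiotics, which asks whether the diet effect differed between SPF and ABX-treated mice, passed for 0 of 7 genes (0.0368% of all genes), with q between 0.686 and 0.996, and for 0 of 7 at an unadjusted p under 0.05 (8.87% of all genes) or with DESeq2 or limma-voom. The diet effects on these genes in the SPF and ABX settings were therefore not shown to differ. TDD against CD and ABX against none on CD share the 5 CD mice, so their results are given side by side and are not 2 independent observations.

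Without the 4 mice with albumin RNA, which left 3 TDD and 3 CD+ABX mice, none of the 7 genes had q under 0.05 (edgeR). The differences that had passed kept their sign. Ahrr, Tiparp and Nqo1 came to -0.72, -0.33 and 0.36 in TDD against CD (q = 0.0715, 0.0791 and 0.0955). Ahrr, Tiparp and Cyp1a1 came to -0.46, -0.28 and -2.75 in ABX on CD (q = 0.226, 0.121 and 0.12), and Cyp1b1 in ABX on TDD to -1.14 (q = 0.05). That fit has fewer mice, and how far the liver RNA itself moved the values was not tested. Without CD mouse 2, the mouse low in enterocyte markers, Tiparp and Nqo1 stayed at q under 0.05 for TDD against CD (log2 fold changes -0.38 and 0.46, q = 0.00244 and 0.0107, edgeR). So did Tiparp for ABX on CD (-0.41, q = 0.0021, edgeR). Ahrr came to -0.56 in both comparisons (q = 0.0546 and 0.0625, edgeR), Cyp1a1 in ABX on CD to -2.54 (q = 0.0536, edgeR) and Cyp1b1 in ABX on TDD to -1.16 (q = 0.00423, edgeR).

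**Figure D2:**
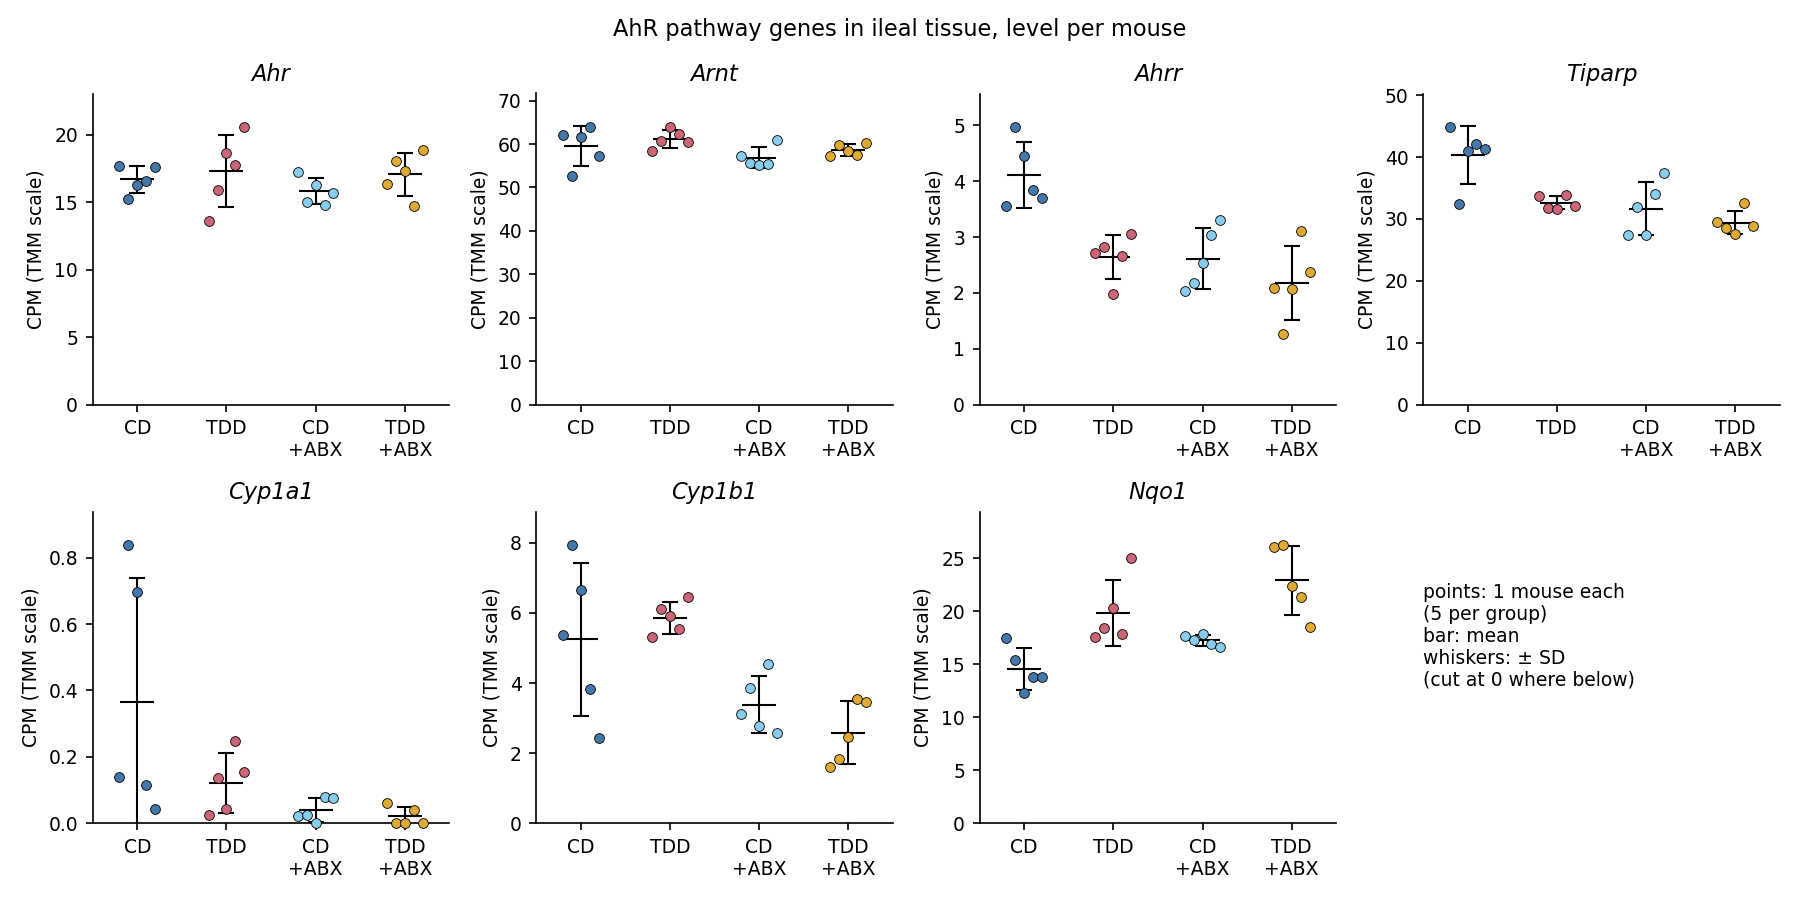
CPM of the 7 AhR genes in each mouse (TMM scale, linear axes from 0; 1 point per mouse, bar and whiskers mean ± SD, n = 5). Ahr and Arnt lay level over the 4 groups, Ahrr and Tiparp were highest in CD, Cyp1b1 was lower in the ABX groups, and Nqo1 was highest on TDD.

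The levels of the 7 genes were compared with each other per length, as TPM, the length-scaled transcript level, over all 20 mice. Arnt came first at 21.02 ± 1.39 TPM, followed by Nqo1 at 16.9 ± 3.65, Tiparp at 11.2 ± 1.64, Ahr at 4.01 ± 0.439, Cyp1b1 at 1.08 ± 0.456, Ahrr at 0.830 ± 0.244 and Cyp1a1 at 0.0707 ± 0.120 TPM (SD, n = 20). Arnt and Nqo1 overlapped within their SDs, as did Cyp1b1 and Ahrr. The place of Nqo1 above Tiparp did not hold in every group, since in CD mice the means were 13.3 and 13.4 TPM, against 21.4 and 10.15 TPM in TDD+ABX mice. The partner was thus more abundant than the receptor, and Cyp1a1, the target most used to read AhR activity, was the lowest of the set.

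Ahr (ENSMUSG00000019256.17, chr12:35497974-35535038, minus strand, GRCm38) encodes the receptor itself. It was at 17.7, 15.3, 16.3, 16.6 and 17.7 CPM in CD mice and at 13.6, 15.9, 18.6, 17.8 and 20.6 CPM in TDD mice. The CD+ABX mice had 17.2, 15.1, 16.3, 14.8 and 15.7 CPM and the TDD+ABX mice 16.4, 18.1, 17.3, 14.7 and 18.9 CPM. All groups overlapped, with the widest spread in TDD mice. The log2 fold change of TDD against CD was 0.05 in SPF mice (95% interval from its standard error, -0.13 to 0.23) and 0.11 with ABX (-0.07 to 0.29). That of ABX was -0.08 on CD (-0.26 to 0.10) and -0.02 on TDD (-0.20 to 0.16), so changes of Ahr RNA larger than about 0.3 on the log2 scale lay outside all 4 intervals. The transcript Ahr-202 carried 99.5% of its counts. The long noncoding gene Gm48236 overlaps Ahr on the other strand, and the counting is not stated to use strand.

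Arnt (ENSMUSG00000015522.18, chr3:95434388-95497240, plus strand) encodes the partner that AhR shares with the hypoxia factors. Its group means were 59.5 ± 4.57 CPM in CD, 61.2 ± 2.04 in TDD, 56.9 ± 2.39 in CD+ABX and 58.6 ± 1.33 in TDD+ABX mice (SD, n = 5), and all groups overlapped. Its log2 fold changes lay between -0.07 and 0.04, with 95% intervals that stayed within -0.16 and 0.14 (q between 0.412 and 0.737, edgeR).

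Ahrr (ENSMUSG00000021575.16, chr13:74211118-74292331, minus strand) encodes the AhR repressor, which AhR induces and which competes with it for ARNT. It was at 3.55, 4.98, 4.45, 3.85 and 3.70 CPM in CD mice and at 2.71, 2.82, 1.99, 2.67 and 3.06 CPM in TDD mice. In CD+ABX mice it was at 2.03, 2.18, 2.54, 3.04 and 3.30 CPM and in TDD+ABX mice at 2.09, 1.26, 2.07, 3.10 and 2.37 CPM. Each CD mouse lay above every mouse of the other 3 groups, and those 3 groups overlapped each other. Groups without overlap were found for 9.58% of all genes in TDD against CD and for 9.74% in ABX on CD. The macrophage marker Adgre1 had the same pattern, at 9.04 ± 1.03 CPM in CD, 5.29 ± 1.11 in TDD, 5.82 ± 0.613 in CD+ABX and 4.45 ± 0.835 in TDD+ABX mice (SD, n = 5), with every CD mouse above all others. It fell with TDD in the SPF setting (q = 0.00179, edgeR) and with ABX on CD (q = 0.00783, edgeR), and its part in the result for Ahrr was not tested.

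Ahrr fell with TDD in SPF mice, with a log2 fold change of -0.63 ± 0.19 (± marks the standard error, SE, for fold changes; q = 0.0333, edgeR), and with ABX in CD-fed mice, with one of -0.65 ± 0.19 (q = 0.032, edgeR). With ABX the diet difference was -0.27 (standard error 0.19, q = 0.561), and on TDD that of ABX was -0.28 (standard error 0.19, q = 0.339, edgeR). The interaction was 0.37 with a standard error of 0.27 (q = 0.758, edgeR). Leaving out CD mouse 2 or 3, or TDD mouse 2, 3 or 4, took the SPF diet difference to q of 0.05 or more (up to 0.0824). Its log2 fold change stayed between -0.69 and -0.56. The difference with ABX on CD likewise lost q under 0.05 when CD mouse 2 or 3, or CD+ABX mouse 1, 2 or 3, was left out. There q was up to 0.0778, and the log2 fold change stayed between -0.75 and -0.56. With limma on log2(TPM + 1) and log2(TPM + 0.1) neither difference passed, at q = 0.0525 and 0.0958 for the diet and 0.0551 and 0.0982 for ABX.

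Ahrr has 7 annotated transcripts, of which 2 carried nearly all its counts, namely the protein-coding Ahrr-201 (76.8%) and Ahrr-205, which retains an intron (22.2%). Ahrr-201 was at 0.857, 1.18, 1.004, 0.845 and 0.786 TPM in CD mice and at 0.574, 0.551, 0.347, 0.489 and 0.598 TPM in TDD mice, again without overlap. It was at 0.561 ± 0.123 TPM in CD+ABX and 0.430 ± 0.160 TPM in TDD+ABX mice. Ahrr-205 was at 0.187 ± 0.0426 TPM in CD, 0.167 ± 0.0422 in TDD, 0.138 ± 0.0335 in CD+ABX and 0.162 ± 0.0452 in TDD+ABX mice (SD, n = 5), and its groups overlapped. The difference between CD mice and the others was thus carried in the deposited estimates by the protein-coding transcript, whose share of the gene's counts was 82.3% ± 2.83 in CD and 73.0% ± 7.35 in TDD mice. Reads from shared exons were divided between both transcripts by kallisto, and no test was run on transcripts.

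**Figure D3:**
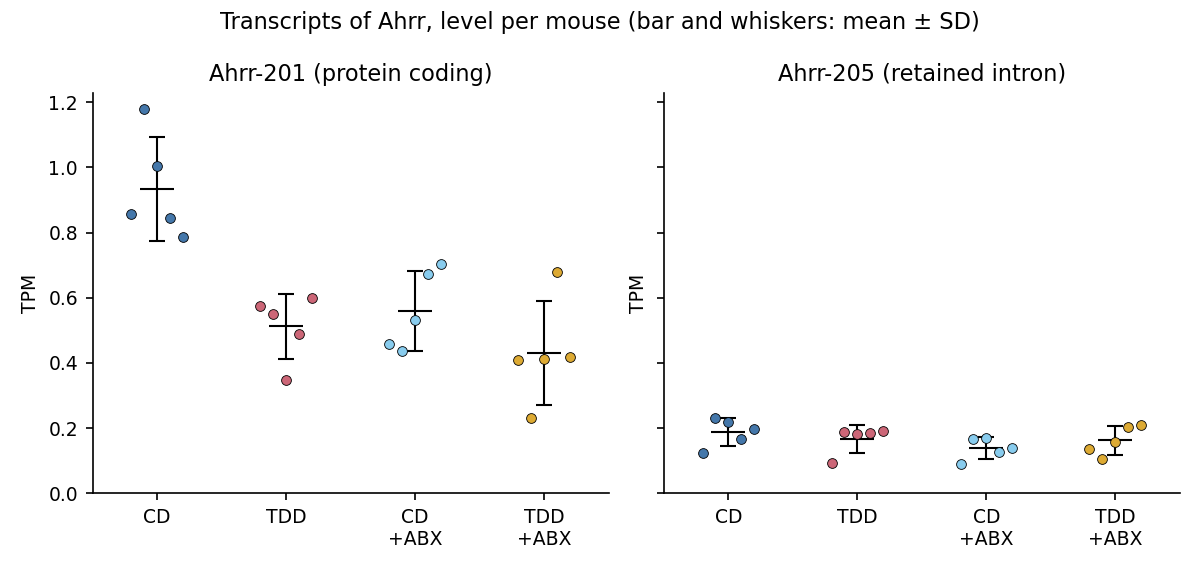
TPM of the protein-coding Ahrr-201 and of Ahrr-205, which retains an intron, in each mouse (1 point per mouse, bar and whiskers mean ± SD, n = 5, common axis from 0). Ahrr-201 was above 0.78 TPM in every CD mouse and at 0.71 TPM or less in all others, while Ahrr-205 overlapped between all groups.

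Tiparp (ENSMUSG00000034640.9, chr3:65528410-65555518, plus strand) encodes an ADP-ribosyltransferase that AhR induces and that in turn promotes degradation of the receptor. It was at 44.9, 32.4, 41.0, 42.2 and 41.3 CPM in CD mice and at 33.6, 31.9, 31.6, 33.9 and 32.1 CPM in TDD mice. In CD+ABX mice it was at 27.4, 31.9, 27.4, 34.1 and 37.4 CPM and in TDD+ABX mice at 29.5, 28.6, 27.6, 32.6 and 28.9 CPM. CD mouse 2, the mouse low in enterocyte markers, lay among the TDD mice, and the other 4 CD mice lay above every mouse of the other groups. TDD lowered Tiparp in SPF mice, at a log2 fold change of -0.31 ± 0.09 (SE; q = 0.0219, edgeR), and so did ABX on CD, at -0.35 ± 0.09 (q = 0.0119, edgeR). The diet difference with ABX was -0.11 (q = 0.613) and that of ABX on TDD -0.15 (q = 0.255, edgeR), with an interaction of 0.20 (standard error 0.12, q = 0.686). The difference in SPF mice lost q under 0.05 without CD mouse 1 (q = 0.0616, edgeR). That of ABX on CD kept it without any single mouse but not with only the 2 groups in the fit (q = 0.0745, edgeR). A pseudogene, 4931440P22Rik, overlaps Tiparp on the other strand.

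Cyp1a1 (ENSMUSG00000032315.6, chr9:57687928-57703824, plus strand) encodes the cytochrome P450 that AhR induces most strongly in many tissues and that clears AhR ligands. The CD mice had 5, 36, 35, 5 and 2 counts of it, the TDD mice 1, 6, 2, 9 and 9, the CD+ABX mice 1, 1, 0, 4 and 4 and the TDD+ABX mice 3, 0, 0, 2 and 0. These sum to 83, 27, 10 and 5 counts. Only CD mice 2 and 3, at 0.837 and 0.698 CPM, reached the filter of 0.5 CPM, so the gene was tested through the group in which it was high and had to differ. The 4 mice at 0 counts could have held up to 0.0600 to 0.0718 CPM, the level of 3 counts.

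With ABX on CD the log2 fold change of Cyp1a1 was -3.08 (standard error 0.85, q = 0.0227, edgeR), at 0.366 ± 0.372 CPM without and 0.0399 ± 0.0349 CPM with ABX (SD, n = 5), and the groups overlapped. It was -1.60 for TDD against CD in SPF mice (standard error 0.74, q = 0.161), -2.38 for ABX on TDD (standard error 1.05, q = 0.132) and -0.90 for TDD against CD with ABX (standard error 1.21, q = 0.785, edgeR). The means thus ran from CD through TDD and CD+ABX to TDD+ABX, but each neighbouring pair overlapped. The call of ABX on CD was lost without CD mouse 2, CD mouse 3 or CD+ABX mouse 3 (q up to 0.0671), with limma-voom (q = 0.0733), with limma on log2(TPM + 1) or log2(TPM + 0.1) (q = 0.0874 and 0.0622) and with only the 2 groups in the fit (q = 0.058, edgeR).

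Cyp1b1 (ENSMUSG00000024087.4, chr17:79701537-79715061, minus strand) encodes a related P450 found largely in stromal and immune cells. It was at 5.37, 7.93, 6.64, 3.83 and 2.44 CPM in CD mice and at 5.32, 6.12, 5.90, 5.53 and 6.46 CPM in TDD mice. In CD+ABX mice it was at 3.11, 3.86, 2.78, 4.55 and 2.58 CPM and in TDD+ABX mice at 1.61, 1.84, 2.46, 3.54 and 3.47 CPM. The TDD mice lay close together and above every mouse of both ABX groups, while the CD mice spread from the level of the ABX mice to above that of TDD. ABX lowered Cyp1b1 on TDD, at a log2 fold change of -1.18 ± 0.27 (SE; q = 0.00803, edgeR), where 11.0% of all genes had groups without overlap. On CD the difference was -0.63 (standard error 0.27, q = 0.13, edgeR), and TDD against CD gave 0.16 in SPF mice (q = 0.737) and -0.39 with ABX (q = 0.542, edgeR). The call on TDD held without any single mouse, with q between 0.0032 and 0.026 (edgeR). Beside it, the summed leukocyte markers averaged 211 ± 76.9 CPM in TDD and 120 ± 45.3 CPM in TDD+ABX mice, and the summed fibroblast and smooth muscle markers 1406 ± 420 and 1301 ± 609 CPM (SD, n = 5), with Myh11 as the most abundant of the latter 8 and none at 0. By mouse, the fibroblast and smooth muscle sums were 1916, 1570, 1428, 761 and 1356 CPM in TDD mice. In TDD+ABX mice they were 729, 1195, 714, 1941 and 1926 CPM. The summed endothelial markers averaged 127.8 ± 13.7 CPM in TDD and 106.1 ± 9.33 CPM in TDD+ABX mice (SD, n = 5). The part of these markers in the result was not tested.

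Nqo1 (ENSMUSG00000003849.8, chr8:107388225-107403206, minus strand) encodes a quinone reductase that both AhR and the oxidative stress factor NRF2 induce. It was at 17.5, 15.4, 12.3, 13.8 and 13.8 CPM in CD mice and at 17.6, 18.4, 20.3, 17.9 and 25.0 CPM in TDD mice. In CD+ABX mice it was at 17.6, 17.3, 17.8, 16.9 and 16.7 CPM and in TDD+ABX mice at 26.1, 26.2, 22.4, 21.4 and 18.5 CPM. It thus moved the other way from Ahrr and Tiparp, and the diets did not overlap in either setting, although the highest CD mouse (17.49 CPM) and the lowest TDD mouse (17.56 CPM) nearly met. TDD raised it in SPF mice, at a log2 fold change of 0.45 ± 0.11 (SE; q = 0.00945, edgeR), and this held without any single mouse (q up to 0.0323). With ABX the diet difference was 0.41 (standard error 0.11, q = 0.0608, edgeR; groups without overlap in 4.78% of all genes), the interaction was -0.04 (standard error 0.15, 95% interval -0.34 to 0.26), and DESeq2 gave q = 0.014. As single mice were left out, q of the diet difference with ABX ranged from 0.0358 to 0.169 (edgeR), and it passed without CD mouse 2, TDD mouse 5 or TDD+ABX mouse 5. ABX gave 0.25 on CD (q = 0.15) and 0.21 on TDD (q = 0.204, edgeR).

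**Figure D4:**
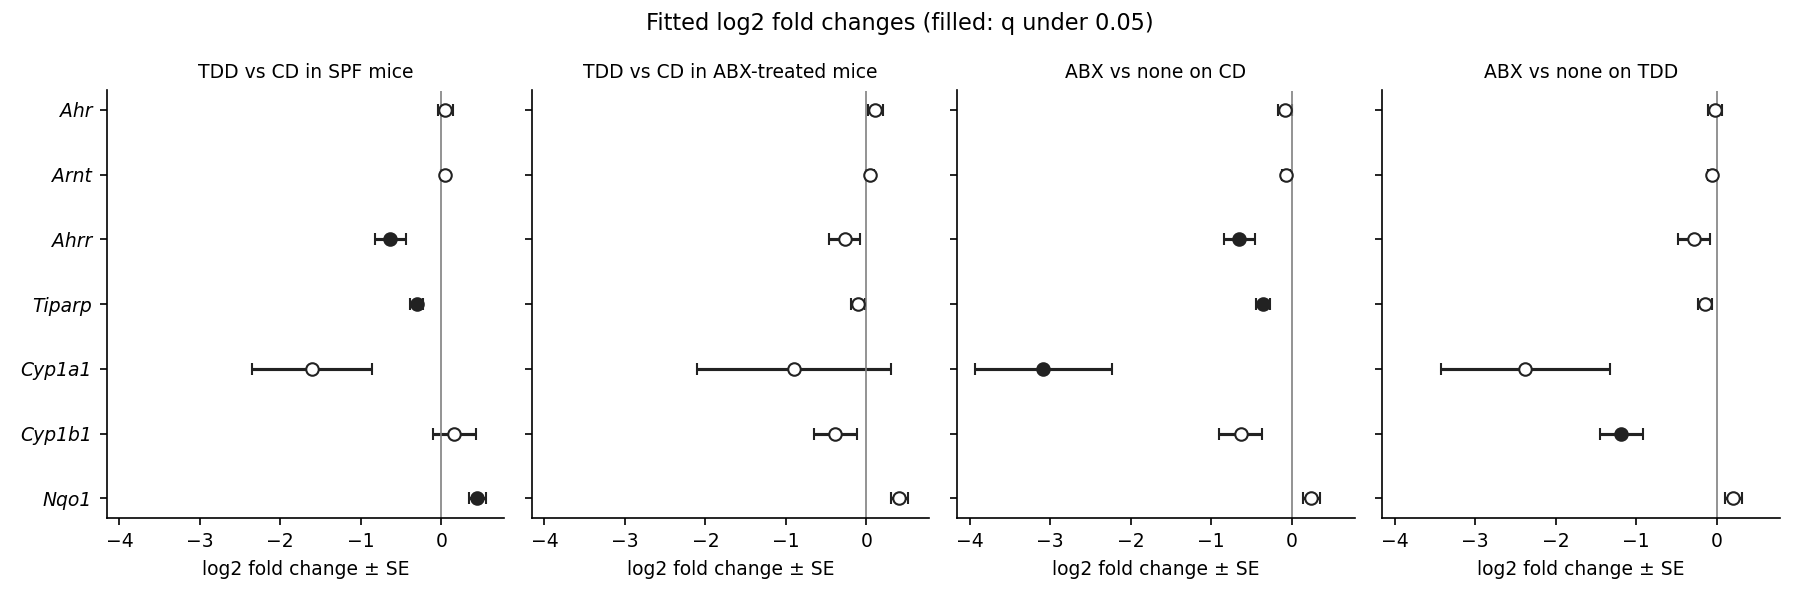
Log2 fold changes of the 7 genes with their standard errors from edgeR in the 4 comparisons (filled points, q under 0.05; a common axis, 0 marked). Ahrr and Tiparp lay left of 0 in all 4 panels and Nqo1 right of it, and Cyp1a1 had the widest standard errors, from 0.74 to 1.21.

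The genes most alike to each of the 7 over the 20 mice were taken by Pearson r of log2(CPM + 1) among 14047 or 14048 genes at a mean of at least 1 CPM. The mice share their group means, so r of the deviations from those means is given too, and neither carries a test. Ahrr was most like Gm8221 (r = 0.91, and 0.80 within groups), Apol7c (0.90 and 0.79) and Gbp2b (0.86 and 0.64), the latter an interferon-induced guanylate-binding protein. Tiparp was most like Vrk3, Slc39a4 and Gpc4 (r = 0.91, 0.90 and 0.89, and 0.74, 0.89 and 0.81 within groups). Slc39a4 encodes a zinc transporter. Cyp1b1 was most like Qk, Arhgap24 and Ggta1 (0.90, 0.87 and 0.87, and 0.83, 0.76 and 0.66 within groups), and Cyp1a1 was close to Fam189a2 and Nkx1-2 (0.82 and 0.78, and 0.67 and 0.59 within groups). Nqo1 was most like Ccnd2, Rrp1b and Sdad1 (0.90, 0.88 and 0.87, and 0.68, 0.77 and 0.70 within groups), Ahr like Pde4a, Sbno1 and Arid1a (0.80, 0.75 and 0.72, and 0.86, 0.74 and 0.76 within groups) and Arnt like Unc93a2, Tmem243 and Rp2 (0.86, 0.85 and 0.85, and 0.81, 0.81 and 0.83 within groups). None of the 7 was among the 3 closest genes of another, where Cyp1a1 lay below 1 CPM and was not a candidate. Between the targets, r was 0.70 for Ahrr and Cyp1a1 (0.45 within groups), 0.71 for Ahrr and Tiparp (0.22 within groups), 0.64 for Cyp1a1 and Cyp1b1 (0.64 within groups) and 0.55 for Ahrr and Cyp1b1 (0.47 within groups). Tiparp gave 0.35 with Cyp1a1 and 0.32 with Cyp1b1, but -0.335 and -0.17 within groups. Cyp1a1 had 36 and 35 counts in CD mice 2 and 3 and at most 9 in any other mouse. All its r values here, within groups too, may rest on that pair of mice, which was not tested. Nqo1 gave negative r with the other 4 targets, from -0.72 with Ahrr to -0.37 with Cyp1b1, and from -0.31 to -0.08 within groups. Ahr itself gave r between -0.25 and -0.05 with Ahrr, Tiparp, Cyp1a1 and Cyp1b1, and between -0.395 and -0.157 within groups.

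The machinery around the receptor was followed in 19 genes for chaperones, partners, coactivators and ligase subunits. In SPF mice, where 6.65% of all genes rose and 7.71% fell, 3 of 19 rose with TDD by q under 0.05, namely Hif1a (log2 fold change 0.53), Epas1 (0.53) and Cul4b (0.19), and 1 fell, Arntl (median of the 19, 0.06; of all genes, 0.01). Hif1a and Epas1 encode the hypoxia factors that also pair with ARNT, and Cul4b a ubiquitin ligase scaffold. Arntl, the clock factor BMAL1, had a log2 fold change of -1.63 ± 0.26 without ABX (48.1 to 15.5 CPM, q = 0.000486, edgeR) and of -1.11 ± 0.26 with ABX (38.2 to 17.7 CPM, q = 0.0364, edgeR; ± SE), and was the 1 gene of the list called in either. Its RNA follows the time of day, and the hour of sampling is not given in the sources used here.

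Of the genes of the cytoplasmic complex in this list, 2 rose with ABX on CD (Hsp90aa1 and Ptges3) and 3 on TDD (the same pair and Hsp90ab1). Hsp90aa1, an HSP90 chaperone that holds AhR, had a log2 fold change with ABX of 0.54 on CD (187 to 273 CPM, q = 0.0387, edgeR) and of 0.84 on TDD (178 to 319 CPM, q = 0.00348, edgeR). Ptges3, the cochaperone p23, rose by 0.28 and 0.35 (q = 0.023 and 0.00667, edgeR). Hsp90ab1, the most abundant gene of the list, rose with ABX on TDD from 750 to 1044 CPM (0.48, q = 0.011, edgeR). In all, ABX on CD raised 2 and lowered 1 of the 19 (Ncoa1, a coactivator), and ABX on TDD raised 3 and lowered 2 (Epas1 and Arntl2), where 12.6% and 15.4% of all genes passed, with medians of -0.022 and -0.032 against -0.005 and -0.028 for all genes. Ddb1, a ligase subunit and the second most abundant gene of the list, had group means between 262 and 308 CPM.

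Of the 18 other genes known as AhR-induced, 14 were tested, while Cyp1a2, Il22 and Serpinb2, among those not tested, stayed under 0.21 CPM in every mouse. TDD in SPF mice lowered 1, Ugt1a7c, where 14.4% of all genes passed. TDD with ABX raised 2, Slc7a5 and Ugt1a6a, where 1.64% of all genes passed. Over the 11 of the 14 at a mean of at least 0.5 CPM over all mice, the median log2 fold change with TDD was -0.015 in SPF and 0.171 in ABX-treated mice, against 0.011 and -0.002 for all genes at that mean. Slc7a5, a carrier of tryptophan and other large amino acids, was at 6.66, 6.93, 7.96, 7.53 and 6.90 CPM in CD+ABX mice and at 11.8, 10.8, 31.4, 16.2 and 23.7 CPM in TDD+ABX mice, without overlap (log2 fold change 1.38, standard error 0.27, q = 0.0152, edgeR). The SPF means were 5.69 CPM for the CD and 7.67 CPM for the TDD mice. ABX on TDD raised Slc7a5 (1.29, q = 0.00535, edgeR) and Ugt1a7c (0.54, q = 0.00789, edgeR) and lowered Lpcat2, which ABX on CD lowered too. No other gene of the 14 passed with ABX, where 15.4% of all genes passed on TDD and 12.6% on CD.

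Gsta2, a glutathione transferase, was at 0.104 and 0.338 CPM in CD and TDD mice (log2 fold change 1.76, standard error 0.55, q = 0.0389, edgeR), near the lowest levels tested, with 0 to 11 counts in CD and 6 to 26 counts in TDD mice, and the groups overlapped. It reached 0.5 CPM only in mice on TDD, so it was tested through the diet on which it was high and is left out of the count above. It has close paralogs, and the Ugt1a genes share their last exons, and counts of such genes are uncertain. The most abundant genes of this list, Nfe2l2, which encodes NRF2, and the bilirubin transferase Ugt1a1, had group means of 243 to 272 and 197 to 234 CPM and did not pass the test in any comparison.

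**Figure D5:**
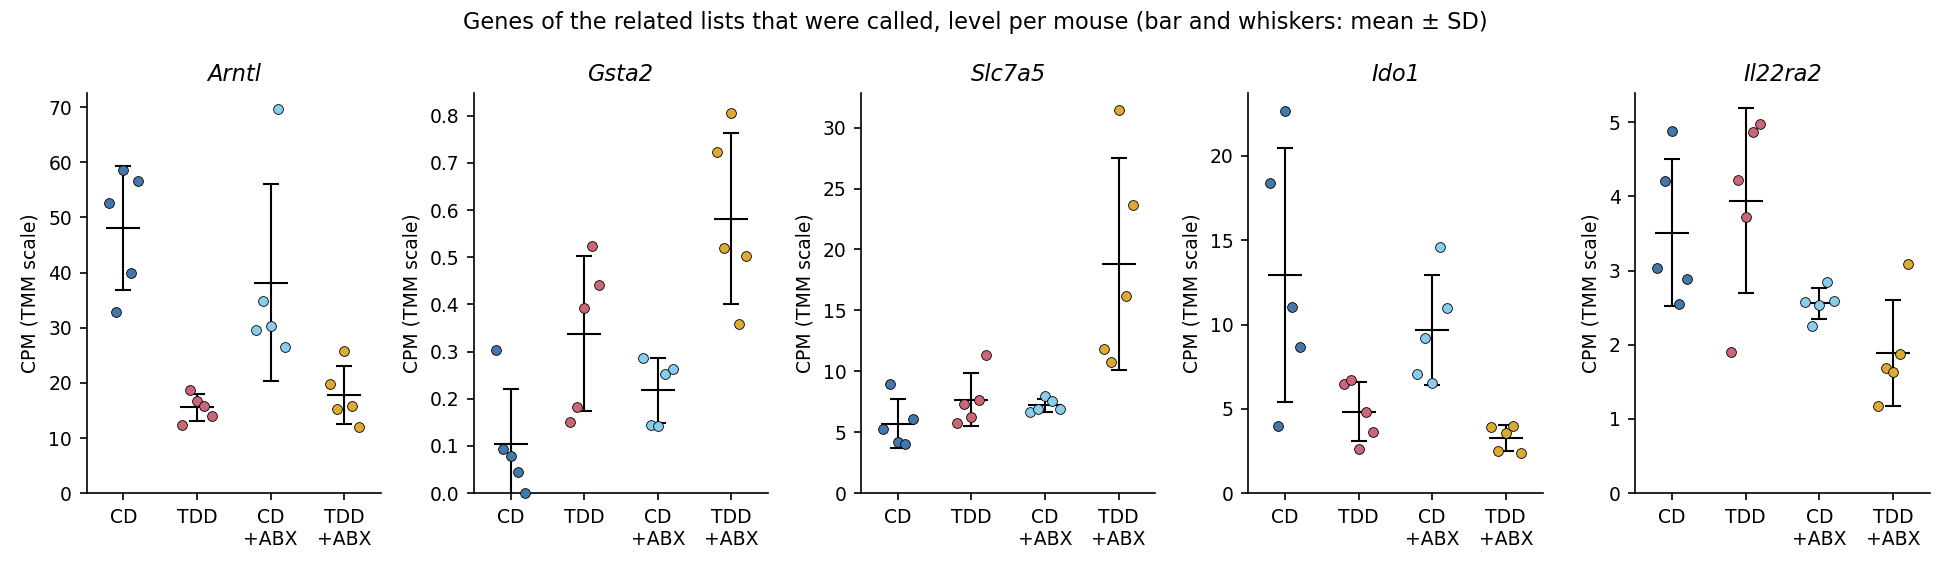
CPM in each mouse of the 5 genes from the related lists that were called in any comparison (TMM scale, axes from 0; 1 point per mouse, bar and whiskers mean ± SD, n = 5). Arntl and Ido1 were lower on TDD in both settings, Slc7a5 was highest in TDD+ABX mice, Gsta2 stayed below 1 CPM, and Il22ra2 was lower in TDD+ABX than in TDD mice.

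The host enzymes that make or remove AhR ligands from tryptophan were tested in 9 genes. Ido1, the first enzyme of the kynurenine route in the gut, was at 18.4, 3.98, 22.7, 11.0 and 8.69 CPM in CD and at 6.47, 6.69, 2.61, 4.82 and 3.62 CPM in TDD mice, where CD mouse 2 lay among the TDD mice. Its log2 fold change with TDD was -1.42 in the SPF setting (q = 0.0157, edgeR). With ABX it was -1.57 (q = 0.0415, edgeR), at means of 9.68 CPM for CD+ABX and 3.27 CPM for TDD+ABX mice, without overlap. Kyat3, a kynurenine aminotransferase, rose in both settings (0.44 and 0.37), and Kyat1, the most abundant gene of the list, rose from 24.3 to 37.9 CPM with ABX (0.64, q = 0.0415, edgeR). ABX lowered Kynu, kynureninase, on both diets (-0.54 and -0.63) and Afmid, the formamidase of the route, on TDD (-0.34). In all, 2 and 3 of the 9 passed for TDD in SPF and ABX-treated mice (14.4% and 1.64% of all genes), and 1 and 2 for ABX on CD and TDD (12.6% and 15.4% of all genes). Over the 8 at a mean of at least 0.5 CPM, the median log2 fold changes were 0.306 and 0.394 for the diet and -0.304 and -0.378 for ABX, against 0.011, -0.002, -0.003 and -0.018 for all genes at that mean.

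Of the genes of AhR-dependent type 3 lymphocytes, 8 were tested, and Il22, Il17a and Il17f, their signature cytokines, stayed under 0.12 CPM in every mouse. Il7r, the interleukin-7 receptor, rose with TDD in the SPF setting (log2 fold change 0.64, q = 0.0182, edgeR) and fell with ABX on TDD (-0.73, q = 0.0103, edgeR). Il22ra2, which encodes the decoy receptor of IL-22, was called lower with ABX on TDD, from 3.94 to 1.89 CPM (-1.06, standard error 0.26, q = 0.0104, edgeR), and its groups overlapped. Kit, the stem cell factor receptor, had group means between 22.2 and 26.8 CPM. ABX on TDD lowered 2 of the 8, where 8.22% of all genes fell. Over the 6 at a mean of at least 0.5 CPM, the median log2 fold changes were 0.29 and 0.106 for TDD in SPF and ABX-treated mice and -0.315 and -0.498 for ABX on CD and TDD, and the second was -0.083 over all 8.

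Since Nqo1 is shared with NRF2, 13 other NRF2-driven genes were set beside it. In SPF mice, where Nqo1 rose with TDD, 0 of the 13 rose and 1 fell (14.4% of all genes passed), Nqo2 (log2 fold change -0.28, q = 0.0026, edgeR), with a median of -0.03. With ABX, where 1.64% of all genes passed, TDD raised Gclc, the catalytic subunit of glutathione synthesis, from 77.0 to 119 CPM (0.63, q = 0.00916, edgeR). It lowered Nqo2 (-0.24, q = 0.0318, edgeR), with a median of 0.07. ABX raised 3 of 13 on CD (Gclc, Srxn1 and Gsr) and 5 on TDD (those 3, Txnrd1 and G6pdx) and lowered Hmox1, heme oxygenase, on TDD, where 12.6% of all genes passed on CD and 15.4% on TDD. Txnrd1, thioredoxin reductase, and Srxn1, sulfiredoxin, were the most abundant, at means of 274 and 263 CPM over all mice.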

How the data were processed

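The authors enriched poly-A RNA, sequenced it on an Illumina NovaSeq and pseudoaligned the reads to GRCm38 mouse transcripts with kallisto 0.44.0, which divides reads between transcripts that share them. They deposited estimated counts per gene, already whole numbers and not normalized, and, by transcript and mouse, estimated counts beside TPM. All 20 mice were used. The study may have used fewer, but no source used here names any left out. Counts were scaled by TMM and tested with edgeR 4.0.16 (robust quasi-likelihood fit of all 4 groups, R 4.3.3) over the genes that reached 0.5 CPM in 1 or more mice. q is the Benjamini-Hochberg adjusted p-value over all genes tested. A gene was called when q was under 0.05 and it changed 2-fold or more, as in the study, which ran its comparisons in the web application iDEP, with the method chosen there not given in the sources used here. In simulated data 88% of 2-fold and 98% of 4-fold changes between CD and TDD were recovered at q under 0.05, without the fold change limit. Of all genes at that q, 1.59% were false. The changed genes were drawn at a mean of 1 CPM or more, so recovery at the lower levels of Cyp1a1 and Gsta2 was not tested.

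The gene set and the 11 related and marker lists were chosen with earlier results of these data known. Genes were named if called or among the 2 most abundant of a list, and others behind a count of 5 or fewer were named after their values were seen. Muc2 held 2 times its transcripts' sum in the gene table. Some genes of the lists are not reported here. The medians over genes at a mean of 0.5 CPM or more were chosen after seeing the data. DESeq2 1.42.0, limma 3.58.1 and other scalings and filters were alternatives. Genomic positions are from GENCODE M21. Nothing says the mice were housed apart or together, so cage effects cannot be told apart from groups.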

Additional observations from a re-analysis of the deposited data

Results flagged for a closer look

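In the groups of 5 mice, 11 of 152 sets of values had a mouse far from the other 4 by Dixon's test, which chance flags in about 1 of 20 sets. None was a value of the 7 AhR genes. CD+ABX mouse 4 had 69.6 CPM of Arntl, against 26.5 to 34.8 CPM in its group, and 144 CPM of Fabp6, against 2.65 to 40.7 CPM. CD mouse 2 had 33.5 CPM of Kit (others 21.04 to 22.43 CPM) and 176 CPM of Srxn1 (others 253 to 257 CPM). TDD mouse 1 had 626 CPM of Hsp90ab1 (others 762 to 804 CPM). CD+ABX mouse 5 had 181 CPM of Acta2 (others 323 to 372 CPM). CD+ABX mouse 1 had 3.15 CPM of Cd8a (others 4.26 to 4.67 CPM). TDD+ABX mouse 4 had 1590 CPM of Muc2 (others 869 to 1074 CPM) and TDD+ABX mouse 5 had 55.1 CPM of Lyz2 (others 26.1 to 33.7 CPM). CD mouse 4 had 22.5 CPM of Kdr (others 25.2 to 26.2 CPM), and CD mouse 5 had 29.9 CPM of Cela1, a pancreatic elastase gene (others 2.91 to 4.53 CPM).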

How the results depend on the processing

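At 5 mice per group, several differences at q under 0.05 rested on single mice. The count of called AhR genes with ABX on CD, which is Cyp1a1 alone, a gene tested only through 2 CD mice, ranged from 0 to 1 as single mice were left out and was 1 under both other scalings, no filter and DESeq2. It was 0 with 0.5 CPM required in 5 mice (Cyp1a1 was not tested), with limma-voom, with limma on log2(TPM + 1) or log2(TPM + 0.1), with only the groups compared, with the replicate block and without the mice with albumin RNA, a setting chosen after seeing the data. On TDD it was 0 in place of 1 with log2(TPM + 1) and without those mice. Without the fold change limit the counts were 3 for TDD against CD in SPF mice and 3 for ABX on CD, Cyp1a1 included.

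Same-numbered mice of different groups did not as a rule deviate together (r from -0.434 to 0.307 over 30 pairs, above 0.1 in 6), so no pairing by number was seen. Low r cannot exclude a weak effect shared by same-numbered mice. With the replicate block Cyp1a1 with ABX on CD came to -2.93 (q = 0.0624, edgeR), which set the block's count of 0, and no other call of the 7 genes changed.

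Sign changes fell on differences that passed no test. Ahr in ABX on TDD was 0.0007 with RLE factors, 0.0005 with the filter in 5 mice, 0.0511 and 0.0649 with log2(TPM + 1) and log2(TPM + 0.1), and 0.109 without the albumin mice, which gave -0.066 for Ahr in TDD against CD. Arnt in ABX on TDD was 0.039 and 0.041 on the TPM scales. The Nqo1 interaction was 0.065 and 0.064 on them and 0.06 without the albumin mice. Leaving out single mice gave -0.019 to 0.127 for Ahr, -0.0091 to 0.068 for Arnt and -0.029 to 0.351 for Cyp1b1 in TDD against CD, and -0.096 to 0.0502 for Ahr in ABX on TDD. The interactions ranged from -0.016 to 0.129 (Ahr), -0.024 to 0.063 (Arnt), -0.127 to 1.074 (Cyp1a1) and -0.115 to 0.058 (Nqo1). The causes were not tested.

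Over all genes, log2(TPM + 1) called 140, 25, 131 and 98 genes in place of 298, 50, 367 and 265 in TDD against CD in SPF and ABX-treated mice and ABX on CD and TDD. DESeq2 called 98 for TDD with ABX and 51 for the interaction, in place of 50 and 4. Single mice moved these counts too. TDD with ABX gave 25 in place of 50 without CD+ABX mouse 4. ABX on TDD gave 163 without TDD+ABX mouse 1 and 421 without TDD+ABX mouse 5, in place of 265.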
